A study of Mus musculus with 48 samples.

Results

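Levels of 10 choroid plexus genes were followed through 48 mouse brain hemispheres. The genes were Ttr, Kl, Sostdc1, Clic6, Slc4a5, Kcnj13, Aqp1, Folr1, Otx2 and Prlr, taken by symbol as markers and transporters of the plexus. The choice was made with earlier results of these data known. They are 10 of the 56893 gene symbols in the deposited count table, and all 10 passed the filter on low counts that left 17352 genes for testing. Their lowest estimated count in any library was 12.

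Each library was made from poly-A RNA of a single hemisphere of 1 mouse, and the 48 mice formed 12 groups of 4 that differ in sex, genotype or feeding state. Control mice were Grin1fl/fl, except female control unrestricted replicate 2, whose label gives 1 flanked allele (Grin1fl/+). Knockout mice were Aldh1a1+/P2A-CreERT2::Grin1fl/fl, in which an inducible Cre recombinase is expressed from the Aldh1a1 gene and is to remove Grin1, a subunit of the NMDA-type glutamate receptor, in cells that express Aldh1a1. The labels used here do not state the inducer given. Mice were between 5.5 and 8.5 months old. Unrestricted mice had chow and about 48 hours of single housing, restricted mice were food-restricted on 2 nights, with a period on chow in the interval, and refed mice had the same 2 nights and then 72 hours in which a feeding device gave grain-based pellets without limit. All mice were moved from group to single housing. Separate mice gave separate libraries, so the spread within a group holds differences between animals and between preparations. The question put by the design is how sex, feeding state and the knockout shape the brain transcriptome. For the plexus genes it becomes whether a gene moved with the amount of plexus RNA in a hemisphere or with feeding.

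The choroid plexus is a folded sheet of secretory epithelium around a core of fenestrated capillaries, suspended in the brain ventricles. It secretes cerebrospinal fluid by moving sodium, chloride and bicarbonate with water from the blood side to the ventricle, and it supplies the fluid with carrier and signalling proteins, of which transthyretin is the most abundant product. It is a small part of a hemisphere, so its genes are read here against the RNA of all other brain cells.

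Total counts ran from 7574827 to 16185373 per library, and the scaling factors between libraries from 0.913 to 1.03. Neuronal Snap25 was at 2354 to 3919 CPM (counts per 1000000 counts of the library, scaled), oligodendrocyte Mbp at 4556 to 10230 CPM and astrocyte Gfap at 169.9 to 333.9 CPM, and all 3 markers were thus present in each hemisphere. The 2 libraries that stood apart were male control refed replicate 1, with 4497 CPM over 6 skeletal muscle genes against at most 326.1 CPM in the other 47 libraries, and female knockout unrestricted replicate 2, with 85290 CPM of the ribosomal RNA gene Rn18s-rs5 against at most 19360 CPM elsewhere. Over the whole hemisphere the targeted gene did not differ. Grin1 was at 307.3 to 410.3 CPM in knockouts and 250 to 469.9 CPM in controls (log2 change 0.02, SE 0.04, edgeR adjusted p = 1). A hemisphere sums Grin1 over all its cells, while the Cre is to act in cells that express Aldh1a1. These values therefore cannot show whether Grin1 was removed in those cells. Aldh1a1, which carries the Cre, fell by 0.92 on the log2 scale in knockouts (SE 0.05, adjusted p = 1.42e-16).

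The secreted proteins come first. Ttr encodes transthyretin, the carrier of thyroxine and retinol-binding protein in the fluid. It took 0.0313 to 0.081% of all counts and stood at 509.1 CPM ± 102.9 (SD, n = 48), with a range from 314.3 to 817.8 CPM. Per kilobase of its canonical transcript that was 386.8 CPM, far above the other 9 members. In bulk tissue fewer plexus cells, less RNA per cell and fewer reads from other cells of the hemisphere cannot be told apart. This holds for every level given here. Kl encodes klotho, which is shed into the fluid and acts as a co-receptor for FGF23, and averaged 3.57 CPM per kilobase. Sostdc1 encodes a secreted antagonist of BMP and Wnt signals and averaged 2.51 CPM per kilobase. It lies at chr12:36364137-36368451 on the plus strand in GRCm39, with 2 exons in the canonical transcript.

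Transporters and channels made up the next tier. Clic6, a chloride intracellular channel family protein, averaged 3.83 CPM per kilobase and was second to Ttr, closely followed by Kl. Folr1, the folate receptor that carries folate into the fluid, averaged 2.14 CPM per kilobase. Aqp1, the apical water channel of the plexus epithelium, was at 1.34 CPM per kilobase, and Slc4a5, an electrogenic sodium bicarbonate cotransporter, at 0.999 CPM per kilobase. Slc4a5 lies at chr6:83196810-83281927 on the plus strand, with 24 exons in the canonical transcript. Kcnj13, an inward rectifier potassium channel, was the lowest member at 0.523 CPM per kilobase. The homeobox factor Otx2, which is needed for plexus identity and is also released into the fluid, averaged 2.07 CPM per kilobase, and Prlr, the prolactin receptor, 0.738 CPM per kilobase. Below Ttr, the mean ± SD ranges overlapped for each pair of neighbours in order of level. All members were measured in the same 48 libraries, and differences between neighbours were not tested.

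Relative spread over the 48 libraries was similar for most members. The coefficient of variation was 17.6% for Kl, 20.2% for Ttr and 27.7% for Sostdc1, and the highest library exceeded the lowest by 2.12-fold for Otx2 and 4.33-fold for Slc4a5. Aqp1 was the exception, with a coefficient of 57.1% and a 10.1-fold range, with its highest value, 18.11 CPM, in the muscle-rich library male control refed replicate 1. Exons of Kcnj13 overlap those of Gigyf2 on the opposite strand, a gene at 73.58 CPM. The strand setting of the counting is not given in the sources used here, so reads of the 2 genes may not have been told apart. The correlation of Kcnj13 with Gigyf2 over 48 libraries was 0.305, given as a description. Exons of Ttr, Otx2 and Prlr also overlap annotated non-coding or predicted genes, among them Otx2os1 on the strand opposite Otx2.

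**Figure D1:**
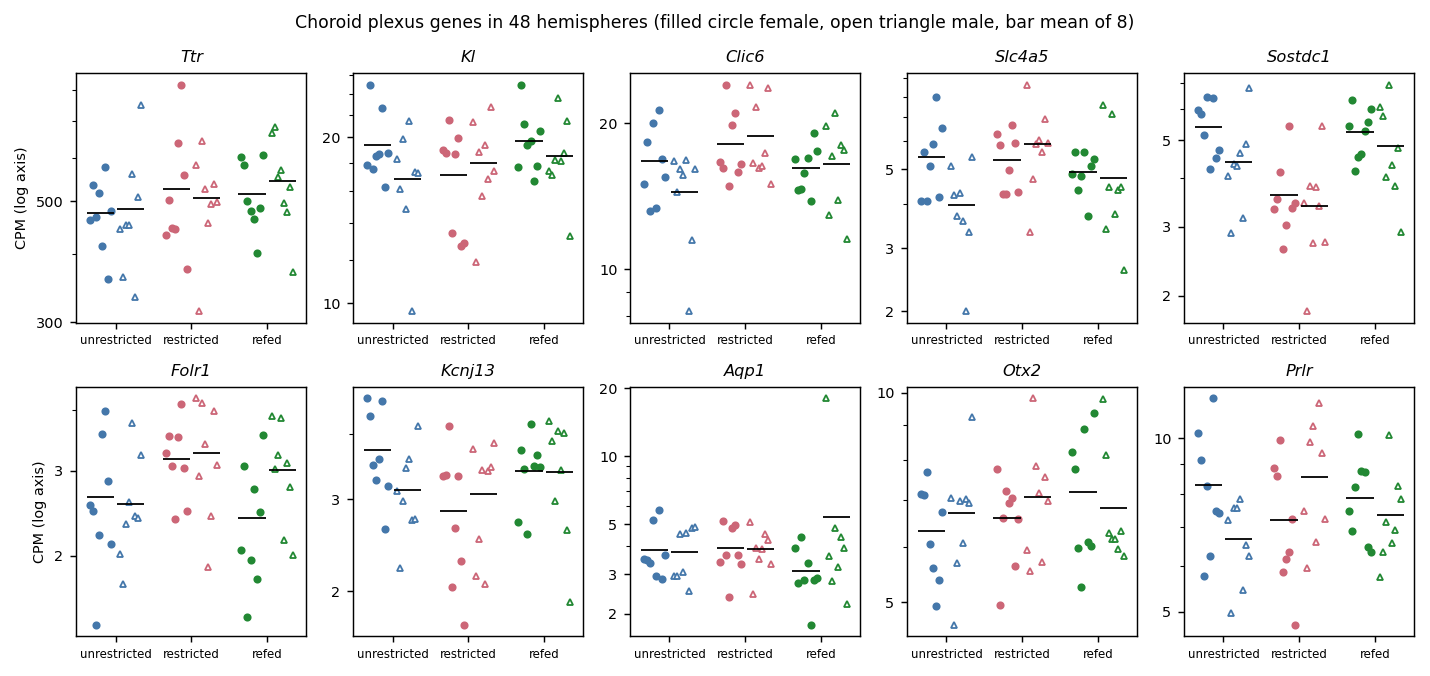
CPM of the 10 genes on log axes in unrestricted, restricted and refed mice, with filled circles for females, open triangles for males and a bar at the mean of the 8 mice of a sex and feeding state. Restricted mice sit low for Sostdc1, restricted males sit high for Slc4a5, and a single refed male stands at 18.11 CPM for Aqp1.

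Promoter sequence is shown for 2 members whose slope on Ttr passed its test (Kl and Slc4a5), for the transcription factor among the members (Otx2) and for the member that did not follow Ttr (Prlr). RefSeq promoters on GRCm38.p6 were at hand for 6 of the 10 members, at 11 start sites, and are given for Kl (chr5:150952357-150952606, plus strand), Slc4a5 (chr6:83237125-83237374, plus strand), the third start of Otx2 (chr14:48665110-48665359, minus strand) and the second start of Prlr (chr15:10223656-10223905, plus strand), each as the 250 bases before the start, 5′ to 3′. Capitals mark a match to one of the 3 motifs searched. Ttr, Clic6, Sostdc1 and Folr1 are named only.
Kl: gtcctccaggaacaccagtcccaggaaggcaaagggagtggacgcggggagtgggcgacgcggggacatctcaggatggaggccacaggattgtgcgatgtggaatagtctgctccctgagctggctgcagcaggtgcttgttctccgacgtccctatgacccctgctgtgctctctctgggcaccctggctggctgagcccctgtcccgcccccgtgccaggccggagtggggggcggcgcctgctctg
Slc4a5: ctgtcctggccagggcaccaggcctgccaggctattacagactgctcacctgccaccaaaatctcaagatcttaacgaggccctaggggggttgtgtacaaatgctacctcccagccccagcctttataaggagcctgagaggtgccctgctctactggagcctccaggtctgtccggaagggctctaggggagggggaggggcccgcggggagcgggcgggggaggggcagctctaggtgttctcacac
Otx2: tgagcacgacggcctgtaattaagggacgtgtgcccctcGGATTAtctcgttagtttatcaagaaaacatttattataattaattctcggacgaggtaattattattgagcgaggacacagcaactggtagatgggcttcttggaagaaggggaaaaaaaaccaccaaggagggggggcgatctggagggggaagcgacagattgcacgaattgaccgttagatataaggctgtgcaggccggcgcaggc
Prlr: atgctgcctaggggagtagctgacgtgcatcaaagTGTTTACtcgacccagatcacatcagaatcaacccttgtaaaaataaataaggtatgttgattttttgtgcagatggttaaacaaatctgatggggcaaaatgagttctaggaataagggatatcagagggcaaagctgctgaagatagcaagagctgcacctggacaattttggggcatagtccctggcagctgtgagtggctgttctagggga

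The motifs searched on both strands were TAATCC, the core bound by OTX2, ACANNNTGT, a core of the glucocorticoid receptor element with N for any base, and TGTTTAC, a forkhead core. Of 32851 promoters of the same length, 6.25% held TAATCC, 5.84% held ACANNNTGT and 3.17% held TGTTTAC. Among the 11 member windows TAATCC occurred once, on the opposite strand of the Otx2 window, 211 to 206 bases before the start, where it reads GGATTA in the printed strand. TGTTTAC occurred once, 215 to 209 bases before the second Prlr start, and ACANNNTGT did not occur. None of these letters is in the Kl or Slc4a5 window. A match describes letters only, and no factor's binding was measured.

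Most members rose and fell with Ttr, the most abundant of them, from hemisphere to hemisphere. In log2 CPM over 48 libraries, 8 of the 9 other members correlated with Ttr at an adjusted permutation p under 0.05 (100000 resamples, adjusted over the 9). Aqp1 had Pearson r = 0.569 and Spearman rho = 0.598 (adjusted permutation p = 0.00027 and 0.00018), and Sostdc1 r = 0.537 and rho = 0.491 (adjusted permutation p = 0.00045 and 0.00159). Kl, Slc4a5, Folr1, Otx2, Clic6 and Kcnj13 followed with r between 0.429 and 0.522 and rho between 0.342 and 0.545. The largest adjusted permutation p among these 6 was 0.00285 for r and 0.0207 for rho. Prlr was the exception, with r = 0.142 and rho = 0.0927 (permutation p = 0.335 and 0.529).

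These correlations did not rest on extreme hemispheres. Without the 2 libraries farthest from the median of Ttr, female knockout restricted replicate 2 and male control restricted replicate 2, r was 0.551 for Aqp1, 0.508 for Folr1, 0.453 for Sostdc1, 0.401 for Kcnj13 and from 0.458 to 0.47 for Clic6, Slc4a5, Otx2 and Kl, and the same 8 genes passed. Within libraries numbered up to 28 r ran from 0.343 (Kcnj13) to 0.581 (Aqp1) for the 8 genes, and within those numbered from 29 from 0.433 (Clic6) to 0.639 (Aqp1). Kcnj13 and Otx2 missed the threshold in the lower numbers (adjusted permutation p = 0.0826 and 0.0579) and Clic6 in the higher (adjusted permutation p = 0.0588). For Prlr r was -0.153 in the lower numbers and 0.472 in the higher (adjusted permutation p = 0.437 and 0.0448), and -0.465 among the 16 refed libraries (adjusted permutation p = 0.104). The labels do not say what order the library numbers follow, and the difference between the Prlr values was not tested. All points of a library share its depth and its total.

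Rank among all genes shows how closely each member tracked Ttr. Of the 17351 other genes tested, Aqp1 ranked 6, Sostdc1 7, Kl 9, Slc4a5 11, Folr1 14, Otx2 27, Clic6 36 and Kcnj13 56 by their correlation with Ttr, whereas Prlr ranked 3312. The genes most like Ttr were Ecrg4, a secreted peptide precursor of the plexus, at r = 0.814 and Cldn2, a cation-conducting tight junction claudin, at 0.649. Next came Wdr86 (0.622), the potassium channel subunit gene Kcne2 (0.606), Calml4 (0.582), Enpp2, which encodes autotaxin (0.534), coagulation factor F5 (0.516), Gm49388 (0.507, a predicted gene with a median of 0 CPM, so that the value rests on the libraries above 0), the zinc transporter gene Slc39a12 (0.502) and Hfe (0.497). Likeness here means Pearson r of log2 CPM over 48 libraries.

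Other members had other nearest neighbours by the same measure. Kl was most like Enpp2 (r = 0.798), Sostdc1 most like Kcne2 (0.7), Clic6 most like F5 (0.706), Slc4a5 most like Abca4 (0.685) and Kcnj13 most like Enpp2 (0.546), and those 4 partners stood on the wider list of plexus genes. Folr1 was most like Ddx56 (0.545), Otx2 most like Oard1 (0.619) and Prlr most like Slc38a6 (0.666), none of which is on that list. Aqp1 was most like Jph2, a muscle junction protein (0.787). Without the muscle-rich library the Aqp1 and Jph2 value was 0.532, while that of Kl with Enpp2 was 0.831. Among the third-ranked neighbours, Rgs5, a gene of pericytes, had r = 0.687 with Sostdc1. It was picked out after its value was seen.

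Most pairs of members were positively correlated. Of their 45 pairs, 44 had a positive r, with a median of 0.386 and a highest value of 0.693. After each library's deviation from its group mean was taken, the median was 0.512. Removal of the group means mattered most for Sostdc1. Its r with Clic6 was 0.224 over the raw values and 0.672 over the deviations, its r with Folr1 was 0.0874 and 0.559, and its r with Slc4a5 was 0.277 and 0.605. The coefficients of Sostdc1 with these genes were thus higher within groups than across them, a difference that was not tested. Otx2 stood apart: its r with the members other than Ttr ran from -0.111 (Prlr) to 0.285 (Sostdc1), and from -0.148 to 0.338 over the deviations.

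**Figure D2:**
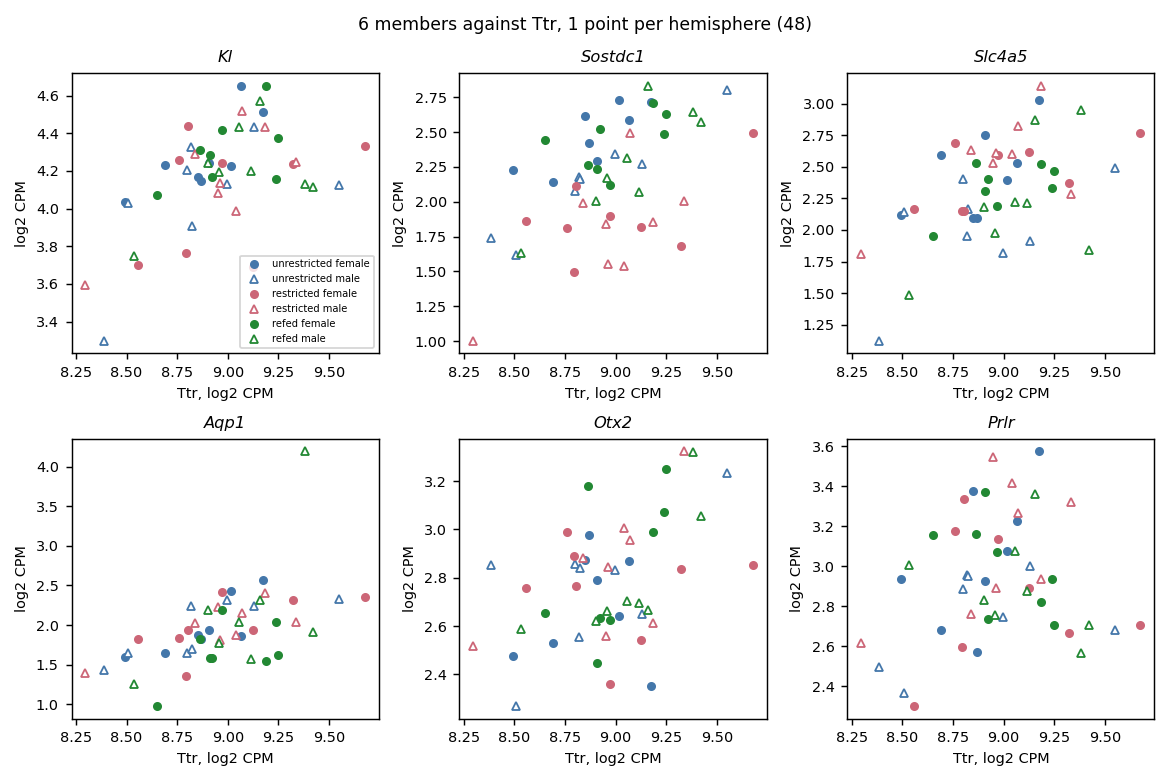
Log2 CPM of Kl, Sostdc1, Slc4a5, Aqp1, Otx2 and Prlr against that of Ttr, with 1 point per hemisphere, colour for feeding state, filled circles for females and open triangles for males. Sostdc1 rises with Ttr (r = 0.537) with restricted hemispheres lying low, and Prlr shows little slope (r = 0.142).

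A model with the 12 groups and log2 Ttr as a covariate gave each gene's slope on Ttr within groups, where 1 means change in proportion to Ttr. Only 6 of 17351 genes (0.0346%) had a slope past an adjusted p of 0.05, and 3 of them were members: Sostdc1 (0.86, SE 0.14, adjusted p = 0.00114), Kl (0.66, SE 0.12, adjusted p = 0.014) and Slc4a5 (0.87, SE 0.17, adjusted p = 0.0144). The other 3 were Ecrg4 (0.97), Kcne2 (1.24) and Cldn2 (1.01). Of the members that did not pass, Aqp1 had a slope of 1.01 with an SE of 0.28, Kcnj13 0.68, Folr1 0.66, Clic6 0.55, Otx2 0.40 and Prlr 0.31. The median over the 9 members was 0.66 and over the 37 tested genes of the wider plexus list 0.41, with all 9 and all 37 above 0, against -0.01 over all genes. Most of these slopes lie below 1, and the error of Ttr itself, used as a predictor, was not modelled.

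**Figure D3:**
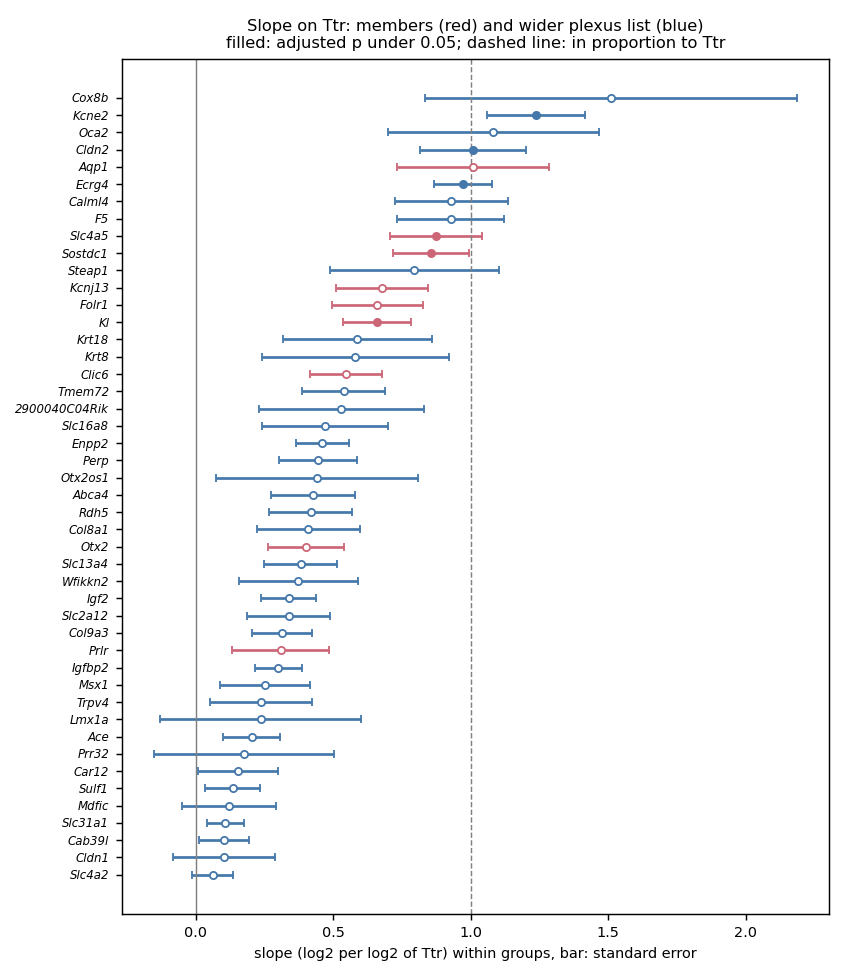
Slope of each gene on Ttr within groups, in log2 per log2 of Ttr, with bars for the standard error, red for members, blue for the wider plexus list and filled points for an adjusted p under 0.05. The 3 filled members, Slc4a5, Sostdc1 and Kl, lie at 0.87, 0.86 and 0.66, and Prlr at 0.31 is the lowest member.

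With the sexes pooled, Sostdc1 had the largest feeding changes of the 10 members, lower after restriction and higher again after refeeding. In females it stood at 4.221, 5.492 and 6.438 CPM (lowest, median and highest of 8) without restriction, at 2.635, 3.402 and 5.436 CPM after restriction and at 4.168, 5.342 and 6.346 CPM after refeeding. Of the 8 restricted females, 7 lay below every unrestricted female. In males the values were 2.891, 4.32 and 6.806 CPM, then 1.823, 3.421 and 5.446 CPM, then 2.915, 4.552 and 6.931 CPM. The male groups overlapped, with 3 of 8 restricted males below every unrestricted male.

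Over both sexes Sostdc1 fell by 0.49 on the log2 scale with restriction (SE 0.11, fold 0.712, edgeR adjusted p = 0.00129, n = 16 per state). It was 1 of the 10 members called, against 15.2% of all 17352 genes, so the members were called no more often than genes at large, and 4 of the 10 had an unadjusted p under 0.05 where 26.8% of all genes had. The median log2 change over the members was 0.07, against -0.00046 over all genes. Split by sex, Sostdc1 fell by 0.59 in females (SE 0.16, adjusted p = 0.0143, 6.27% of genes called) and its change in males was -0.39 (SE 0.16, adjusted p = 0.124, 8.28% called). The interaction of feeding state with sex, tested jointly over the feeding states, did not pass (n = 48, edgeR F test, p = 0.634, adjusted p = 0.921). The sex difference in the restriction change alone was not tested.

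After refeeding Sostdc1 rose by 0.53 on the log2 scale against restriction (SE 0.11, fold 1.45, adjusted p = 0.000531). Again it was the single member called, where 15.2% of all genes were. In females the rise was 0.55 (adjusted p = 0.0261, 6.1% of genes called) and in males 0.52 (adjusted p = 0.0313, 8.33% called). Within 1 sex these calls were fragile: the female call was lost without any of 5 single libraries (control refed replicate 2, control restricted replicate 4, knockout restricted replicates 1, 3 and 4, adjusted p = 0.0511 to 0.0792), and the male call without any of 9 (control refed replicates 1 and 4 and restricted replicates 2 and 4, knockout refed replicates 1 and 3 and restricted replicates 1, 2 and 4, adjusted p = 0.0503 to 0.082), with limma voom (adjusted p = 0.105), with the library number split as a block (adjusted p = 0.0762) and without the 2 libraries that stood apart (adjusted p = 0.0519). Both feeding comparisons use the same 16 restricted libraries, so the fall and the rise are not independent. Refed against unrestricted mice, which share no library, differed by 0.04 (SE 0.11, adjusted p = 0.898). No member was called there, where 0.738% of genes were, 0 members had an unadjusted p under 0.05 against 13% of genes, and 0 were called by DESeq2 or limma voom.

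The fall of Sostdc1 was also called with Ttr in the model. Ttr itself was at 479.9 CPM ± 100.1 without restriction, 517.0 ± 118.7 after restriction and 530.3 ± 87.33 after refeeding (SD, n = 16 each), with a change of 0.11 on restriction (SE 0.09, adjusted p = 0.509). With log2 Ttr in the model Sostdc1 fell by 0.57 with restriction (SE 0.08, adjusted p = 1.34e-06), again as the single member called, where 14.8% of genes were. It rose by 0.49 with refeeding (SE 0.08, adjusted p = 1.98e-05). With the covariate the call also stood in each sex on restriction, as a fall of 0.69 in females (adjusted p = 6.53e-05, 5.95% of genes called) and of 0.45 in males (adjusted p = 0.00947, 8.2% called). The size depended on the plexus measure: with Ecrg4, Kcne2, Cldn2 and F5 in place of Ttr the change was -0.41 over both sexes (adjusted p = 0.000124) and -0.40 in females (adjusted p = 0.021), and with the wider list -0.52 and -0.50 (adjusted p = 3.73e-07 and 0.000817). Ecrg4, Kcne2, Cldn2 and F5 were among the genes most correlated with Ttr in these libraries. Of them Kcne2 was itself called lower with restriction when Ttr was in the model. The wider list holds Kcne2 too, beside genes called with restriction such as Igfbp2 and Wfikkn2. Neither measure is therefore free of feeding.

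The ratio to Ttr within a library needs no library total. Per 1000 counts of Ttr, Sostdc1 had 9.818 to 12.91 counts in unrestricted females (mean 11.36), 4.745 to 9.262 in restricted females (mean 7.061) and 8.316 to 13.1 in refed females (mean 10.25). No restricted female overlapped an unrestricted one, and the share of all genes that separate as fully was not counted. In males the means were 9.063, 6.707 and 8.805, and 6 of 8 restricted males lay below every unrestricted male while 1 lay above them all. An exact two-sided permutation test over all 12870 assignments of 8 against 8 gave a log2 difference of -0.69 in females (p = 0.000155, the smallest the design allows, adjusted p = 0.00839 over 54 tests of 9 members) and -0.45 in males (exact p = 0.00404, adjusted p = 0.0727). For refeeding the exact test gave 0.53 in females (adjusted p = 0.042) and 0.39 in males (adjusted p = 0.109). These were the 2 of 54 ratio tests that passed, both in females.

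**Figure D4:**
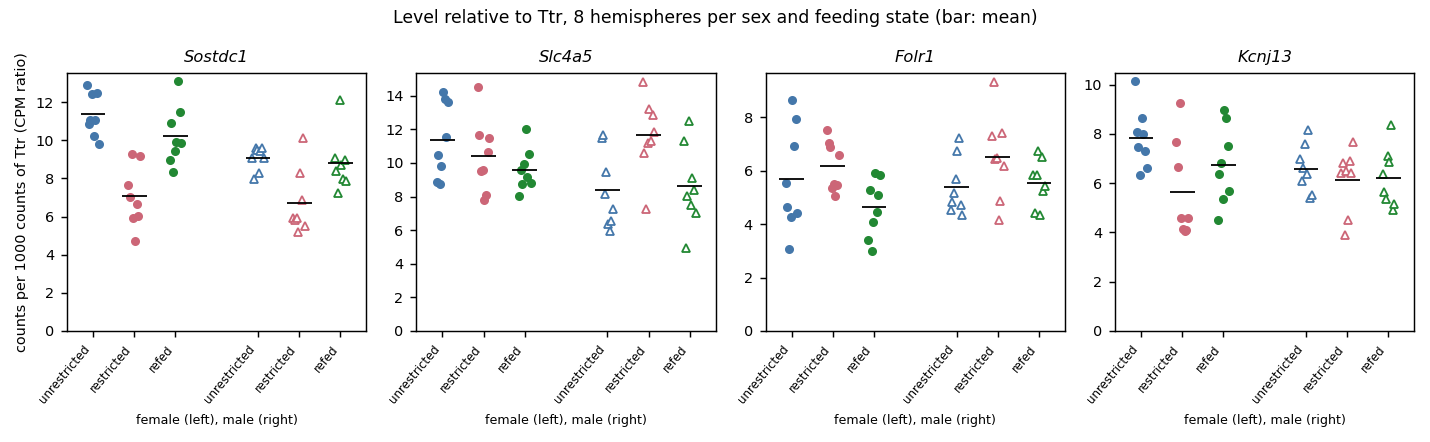
Counts of Sostdc1, Slc4a5, Folr1 and Kcnj13 per 1000 counts of Ttr in each hemisphere, by feeding state, for females on the left and males on the right of each panel, with a bar at the mean of 8. All 8 restricted females lie below the 8 unrestricted females for Sostdc1, with means of 7.061 and 11.36.

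The order of library numbers touches this result, because all refed libraries carry numbers up to 28. Between refed and restricted mice Sostdc1 was called within the libraries up to 28, with and without Ttr as covariate. Within the libraries up to 28 Sostdc1 had a log2 change of -0.53 with restriction (adjusted p = 0.128), and within those from 29 of -0.46 (adjusted p = 0.0688), so neither part passed by itself. With Ttr as covariate both passed, at -0.65 (adjusted p = 0.00816) and -0.51 (adjusted p = 0.00676). Without the 2 libraries that stood apart the change was -0.46 without the covariate (adjusted p = 0.00328).

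Slc4a5 was higher after restriction in males. Unrestricted males had 1.996, 3.964 and 5.429 CPM (lowest, median and highest), restricted males 3.329, 5.896 and 8.642 CPM and refed males 2.613, 4.407 and 7.558 CPM. Of the 8 restricted males, 6 lay above every unrestricted male. In females the medians were 5.349, 5.43 and 4.982 CPM and the ranges overlapped almost fully, from 4.081 to 7.968 CPM without and from 4.249 to 6.643 CPM with restriction.

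In males Slc4a5 rose by 0.57 on the log2 scale with restriction (SE 0.17, fold 1.48, adjusted p = 0.0295). It was the single member called there, where 8.28% of all genes were. In females its change was -0.01 (SE 0.17, adjusted p = 0.99). Over both sexes it was 0.28 (adjusted p = 0.119). The interaction of feeding state with sex, taken jointly over the feeding states, was not called. It had p = 0.0677 (n = 48, edgeR F test, adjusted p = 0.8) and, with Ttr as covariate, p = 0.00904 (adjusted p = 0.742). No difference between the sexes was shown, and the sex difference in the restriction change alone was not tested. With the covariate the male rise was 0.51 (SE 0.14, adjusted p = 0.0108, 8.2% of genes called), and Slc4a5 in males fell by 0.43 between restriction and refeeding (adjusted p = 0.0417, 7.93% of genes called), a call lost without any of 9 single male libraries, among them male control restricted replicate 1 (adjusted p = 0.148), with the wider list (adjusted p = 0.0651) or Ecrg4, Kcne2, Cldn2 and F5 (adjusted p = 0.133) in place of Ttr, without the filter (adjusted p = 0.0666) and in a fit to the groups compared (adjusted p = 0.0984). As a ratio to Ttr, restricted males had 7.275 to 14.84 counts per 1000 (mean 11.64) against 5.969 to 11.65 (mean 8.374), a log2 difference of 0.47 (exact permutation p = 0.0162, adjusted p = 0.109). The male call rested partly on single mice: without male control restricted replicate 1, at 8.642 CPM, the rise was 0.42 (adjusted p = 0.142), and without male control unrestricted replicate 3, male knockout restricted replicate 3, or male knockout unrestricted replicate 2 or 3 it also missed the threshold.

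Clic6 and Folr1 leaned upwards with restriction. Clic6 had medians of 15.9, 16.6 and 16.92 CPM in the 3 feeding states in order, with restricted mice from 14.87 to 24.02 and unrestricted mice from 8.193 to 21.28 CPM. Its log2 change was 0.24 (SE 0.09, adjusted p = 0.0609), and Folr1, at 2.608 and 3.222 CPM on average, changed by 0.31 (SE 0.11, adjusted p = 0.0597). Neither passed, and both passed without the 2 libraries that stood apart (Clic6 0.27, adjusted p = 0.0316; Folr1 0.34, adjusted p = 0.0408). In males with Ttr as covariate Clic6 rose by 0.345 with restriction (SE 0.11, adjusted p = 0.0389, 8.2% of genes called). That call was lost with the wider list in place of Ttr (0.27, adjusted p = 0.0677) and without any of 10 single male libraries, among them knockout restricted replicate 3 (adjusted p = 0.119).

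With Ttr as covariate, Folr1 was called lower after refeeding than after restriction. With the covariate, 3 of 9 members were called between refed and restricted mice, where 15.1% of genes were: Sostdc1 rose, as given, while Folr1 fell by 0.30 (SE 0.10, adjusted p = 0.0354) and Slc4a5 fell by 0.27 (SE 0.10, adjusted p = 0.048). Both calls lie close to the threshold, and under other settings Folr1 kept its call in 47 of 58 repeats and Slc4a5 in 21 of 58. The largest adjusted p without a single library was 0.0714 for Folr1 (without male knockout restricted replicate 3) and 0.117 for Slc4a5 (without male control restricted replicate 1). Without the covariate the changes were -0.26 for Folr1 (adjusted p = 0.117) and -0.23 for Slc4a5 (adjusted p = 0.205). As a ratio to Ttr, the log2 difference of Folr1 was -0.41 in females and -0.21 in males. Neither passed the exact permutation test (adjusted p = 0.109 and 0.415). Against unrestricted mice no member was called with the covariate either, where 0.628% of genes were.

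Kcnj13 leaned downwards with restriction in females. Their lowest, median and highest values were 2.634, 3.53 and 4.681 CPM without restriction and 1.726, 2.982 and 4.134 CPM with it, and 3 of 8 restricted females lay below every unrestricted one. The log2 change was -0.40 (SE 0.16, adjusted p = 0.139), and with Ttr as covariate it fell by 0.49 (SE 0.14, adjusted p = 0.0266, 5.95% of genes called). The call was lost when the plexus was measured by the wider list in place of Ttr (-0.35, adjusted p = 0.143) or by Ecrg4, Kcne2, Cldn2 and F5 (-0.27, adjusted p = 0.313), without the filter on low counts (adjusted p = 0.0771), without the 2 libraries that stood apart (-0.45, adjusted p = 0.0679), and without any of 6 single female libraries, among them control restricted replicate 4 (adjusted p = 0.0851). As given for Sostdc1, neither the wider list nor the measure by Ecrg4, Kcne2, Cldn2 and F5 is free of feeding. In males the values of Kcnj13 were 3.116 and 3.068 CPM on average.

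Kl, Aqp1, Otx2 and Prlr were not called in any feeding comparison. Kl averaged 18.11, 17.55 and 19.1 CPM over the 3 states in order, Otx2 6.521, 6.836 and 7.014 CPM and Prlr 7.477, 7.892 and 7.627 CPM. Aqp1 had medians of 3.47, 3.771 and 3.306 CPM. Prlr had changes of -0.22 in females and 0.35 in males on restriction, and its interaction of feeding state with sex had p = 0.0304 (n = 48, adjusted p = 0.75). That was 1 of 10 members with an unadjusted p under 0.05, while 6.35% of all genes had one and 0% passed after adjustment.

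**Figure D5:**
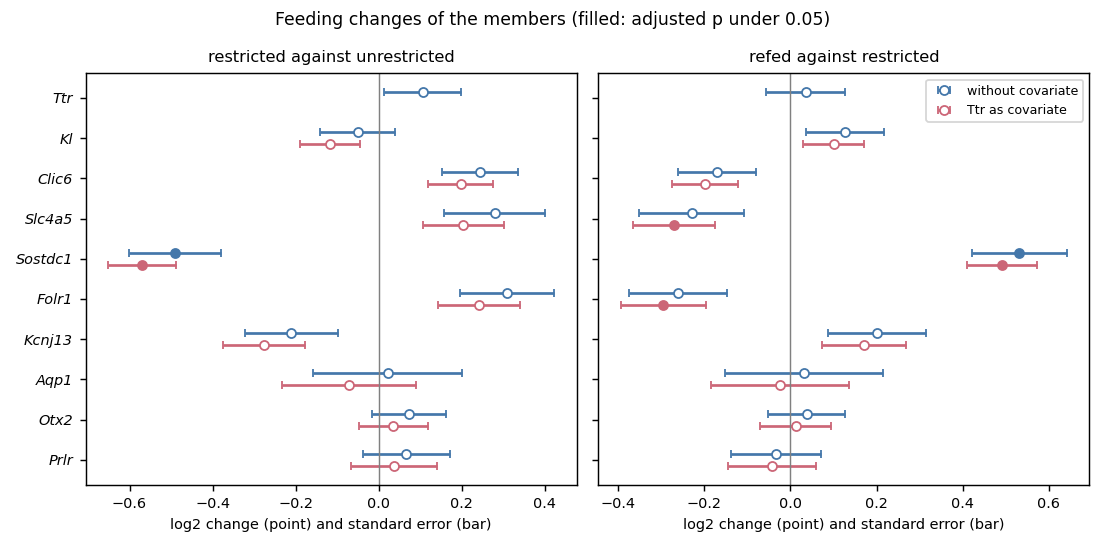
Log2 change of each member between restricted and unrestricted and between refed and restricted mice, with bars for the standard error, blue without and red with Ttr as a covariate and filled points for an adjusted p under 0.05. Sostdc1 lies at -0.49 and 0.53 without the covariate, farther from 0 than any other member in both panels.

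Genotype did not separate the members. Between 24 knockouts and 24 controls 0 of 10 were called by edgeR, DESeq2 or limma voom, 0 had an unadjusted p under 0.05 in edgeR (2.48% of all genes), and the log2 changes ran from -0.15 to 0.08; of all genes 0.00576% were called. The interaction of feeding state with genotype was called for 0 members and 0% of genes. Ttr, Folr1 and Aqp1 had an unadjusted p of 0.043, 0.0166 and 0.0322 there (adjusted p = 0.973 each), where 4.56% of genes had one under 0.05.

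Refed males were where control and knockout stood farthest apart. In them 9 of 10 members were lower in knockouts, 5 with an unadjusted p under 0.05 (7.58% of all genes) and 0 called, where 0.225% of genes were. Aqp1 was at 18.11, 3.594, 2.795 and 4.813 CPM in the 4 controls and 3.242, 4.36, 3.933 and 2.211 CPM in the 4 knockouts (log2 change -1.095, adjusted p = 0.332). The first of the controls is the muscle-rich library, and the other 3 overlapped the knockouts. Ttr averaged 619.4 CPM in controls and 469.6 CPM in knockouts (adjusted p = 0.636), Sostdc1 5.695 and 3.961 CPM (adjusted p = 0.586) and Slc4a5 5.635 and 3.797 CPM (adjusted p = 0.614). The members covary, so these 9 differences are not separate evidence.

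Between males and females 0 of 10 members were called, where 0.357% of genes were. Sostdc1 was the member nearest to it, at 4.203 CPM in males and 4.751 CPM in females (log2 change -0.18, SE 0.09, n = 24 per sex, p = 0.0483, adjusted p = 0.275). It was the 1 member with an unadjusted p under 0.05, against 18% of all genes, and DESeq2 and limma voom called 0.

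Other plexus genes moved in both directions with feeding. Of 42 genes on a wider list of plexus genes, 37 were tested, and 3 rose and 4 fell with restriction (7.31 and 7.84% of all genes), with a median change of -0.02 against -0.00046 over all genes. Those that rose were Wfikkn2, a secreted inhibitor of myostatin and GDF11 (0.57, adjusted p = 0.00168), the tight junction gene Cldn1 (0.38, adjusted p = 0.0142) and Ace. Those that fell were Igfbp2, an IGF-binding protein of the fluid (-0.31, adjusted p = 9.37e-05), the sulfatase gene Sulf1 (-0.22, adjusted p = 0.00804), Mdfic (-0.37, adjusted p = 0.00601) and Car12. Wfikkn2 went from 2.343 to 3.48 CPM and Igfbp2 from 32.63 to 26.49 CPM on average. With Ttr as covariate Kcne2, the gene most like Sostdc1, fell by 0.49 (adjusted p = 0.000762), while without it the change was -0.37 (adjusted p = 0.0901). After refeeding against restriction 5 of the list rose and 3 fell (8.38 and 6.79% of all genes), among them Rdh5 (0.33, adjusted p = 0.014) and Sulf1 (0.30, adjusted p = 0.000407) upwards and Wfikkn2 (-0.41, adjusted p = 0.026) downwards. Against unrestricted mice 0 of 37 were called by edgeR and 3 had an unadjusted p under 0.05.

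Genes of fluid and ion transport, a list of 22 with 21 tested, rose in 2 cases and fell in 4 with restriction (7.31 and 7.84% of all genes). The 2 strongest falls were Car2, a carbonic anhydrase, from 243.2 to 166.3 CPM (-0.55, adjusted p = 3.88e-14), and Aqp4, the water channel of astrocyte endfeet, from 130.3 to 93.28 CPM (-0.48, adjusted p = 8.6e-09). Restricted mice had 136.5 to 199.5 CPM of Car2 and unrestricted mice 208.4 to 264.3 CPM, with no overlap, and how many other genes separate as fully was not counted. Both genes are also expressed by glia, and their values are those of the whole hemisphere. Wnk1, a kinase that controls chloride cotransporters, fell by 0.15 (adjusted p = 0.00162), while Clcn2 rose by 0.15 (adjusted p = 0.0132) and Car14 by 0.21 (adjusted p = 0.0137). After refeeding 4 of the 21 rose and 0 fell (8.38 and 6.79% of all genes), namely Car2, Aqp4, Wnk1 and the potassium chloride cotransporter gene Slc12a7 (0.30, adjusted p = 0.00884).

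Genes around the pathways of Sostdc1 and Prlr were looked at next. Of 15 BMP and Wnt antagonists other than Sostdc1, 12 were tested. Chrd rose with restriction (0.29, adjusted p = 0.000281) and none fell, and after refeeding Chrd, Fst and Bambi fell. The list's median change with restriction was 0.01 over whole hemispheres. Levels of these antagonists in the plexus alone were not measured. Of 10 genes of the prolactin and growth hormone axis 0 were called with restriction and 2 had an unadjusted p under 0.05. After refeeding Stat5a fell by 0.41 (adjusted p = 0.0181). Of 16 glucocorticoid-responsive genes, among them the chaperone gene Fkbp5, 15 rose and 0 fell with restriction, with a median of 0.80 (7.31% of all genes rose), and 16 fell after refeeding (6.79% of all genes fell). Like the other lists, this one was chosen with earlier results of these data known, so its counts are a description and no test. A tie to Sostdc1 was not tested.

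Markers of neighbouring cell types were counted in the same libraries, where 7.31% of all genes rose and 7.84% fell with restriction and 8.38% rose with refeeding. Ependyma, the ciliated lining next to the plexus, had a summed level of 33 to 50.42 CPM without restriction, 30.24 to 52.03 CPM with it and 31.68 to 46.31 CPM after refeeding, and 1 of its 13 markers, Tekt4, rose with restriction. Leptomeningeal markers stood at 76.11 to 120.1 CPM without restriction, 81.92 to 121.6 CPM with it and 75 to 138.9 CPM after refeeding, with 1 of 11 called higher and 2 lower on restriction and 5 higher on refeeding. Endothelial markers stood at 156 to 206.4, 133.6 to 208.4 and 134.5 to 199.4 CPM in the 3 states in order, with means of 185.4, 176.3 and 180.2 CPM, and 4 of 8, namely Cldn5, Slco1c1, Kdr and Tie1, fell with restriction while Abcb1a rose. Their part in the fall of Sostdc1 was not tested. Pituitary markers ranged from 6.994 to 1390 CPM between libraries, with none of 6 tested called in the 2 comparisons with restricted mice. Otx2 is also expressed in the pineal gland. Of the 6 pineal markers 1 passed the low-count filter, their sum ranged from 1.257 to 6.122 CPM, and Asmt, Crx and Gngt1 were at 0 in 42, 38 and 47 of the 48 libraries.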

How the data were processed

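Poly-A RNA of 1 hemisphere of each of 48 mice was sequenced, per the labels' protocols. The authors deposited 1 table of unscaled expected counts per gene symbol, and the submitters' processing notes name fastp, STAR, Salmon and the build mm39, with no roles or versions. The counting strand is not given in the sources used here. Of the nonzero values 66.1% were whole. Total counts were 7574827 to 16185373 per library, which sets the counting error, most strongly for members at 2 to 7 CPM.

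Counts were rounded, filtered (filterByExpr, minimum count 10, minimum total 15) and scaled by TMM. All libraries entered 1 quasi-likelihood fit over the 12 groups in edgeR 4.0.16 (R 4.3.3), and p-values were adjusted by Benjamini-Hochberg over all genes tested. Genes were called at an adjusted p under 0.05. A second fit added log2 CPM of Ttr (prior count 2) as covariate, which gives no value for Ttr. Correlations and exact permutation tests used SciPy 1.17.1, and figures Matplotlib 3.10.9. Positions are from GENCODE M39 on GRCm39. The chain was tested on simulated counts. Replicates were compared for repeated libraries, and none was found among 72 pairs (chi-square per gene at least 2.27).

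The members and lists were chosen with earlier results of these data known. Named genes were the members, up to 6 called genes each with the smallest p from the wider plexus and the fluid and ion transport lists, the 10 genes most correlated with Ttr and the gene most correlated with each other member, and other names were added where a list's calls are counted. Alternatives were DESeq2 1.42.0, limma 3.58.1 voom with sample weights, RLE factors, no filter, library number and age as covariates, a fit to the groups compared, the wider list in place of Ttr and each library left out. Chosen after seeing the data were fits without the 2 libraries that stood apart, with Ecrg4, Kcne2, Cldn2 and F5 in place of Ttr, and within the library numbers up to 28 or from 29.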

Additional observations from a re-analysis of the deposited data

Results flagged for a closer look

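A sample far from the other 3 of its group was looked for in each of the 12 groups and 10 members, which makes 120 groups of 4. By Dixon's criterion at the 95% level 8 stood apart, where chance gives about 1 in 20, or 6. They involved 4 genes, and none of the 8 was Sostdc1 or Slc4a5.

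For Aqp1, the apical water channel, 4 mice stood apart. Male control refed replicate 1 had 18.11 CPM against 2.795 to 4.813 CPM in the other 3, and it is the library with 4497 CPM of skeletal muscle markers. Male knockout unrestricted replicate 2 had 2.521 CPM against 4.544 to 4.862 CPM, male control unrestricted replicate 3 had 4.533 CPM against 2.95 to 3.058 CPM, and female control unrestricted replicate 4 had 5.189 CPM against 3.361 to 3.489 CPM. For Kl, male control refed replicate 4 had 23.59 CPM against 17.12 to 18.17 CPM and female control unrestricted replicate 2, the mouse with 1 flanked allele, had 24.91 CPM against 17.52 to 18.54 CPM. Male control unrestricted replicate 2 was low for both Ttr, at 363.5 CPM against 445.0 to 453.2 CPM, and Prlr, at 4.975 CPM against 7.219 to 7.577 CPM.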

How the results depend on the processing

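No reported value changed sign where it was called: of 1094 repeats of 28 called values under other settings 971 kept the call and 123 lost it, with 0 reversals. Between restricted and unrestricted mice 1 member was called, against 2 without the filter and with DESeq2, 3 with limma voom and without the 2 libraries that stood apart, and 0 within library numbers up to 28 and 0 from 29. Leaving out single libraries gave 1 to 3. The 12 libraries whose loss gave 2 or 3 (Clic6, Folr1 or, in 1 case, Slc4a5 joining Sostdc1) were male control refed replicate 2, unrestricted replicate 4 and restricted replicates 2 and 4, male knockout unrestricted replicates 1 and 4 and restricted replicates 1 and 4, female control unrestricted and restricted replicate 4, and female knockout unrestricted replicate 2 and restricted replicate 4. With Ttr as covariate the count of 1 became 2 with the library number split as a block and 2 with age (Kcnj13), and 4 with the wider list and 4 with Ecrg4, Kcne2, Cldn2 and F5 in place of Ttr (Clic6, Slc4a5 and Folr1), and leaving out single libraries gave 1 to 3, the added gene being Kcnj13 in 15 of 17 cases. Between refed and restricted mice with the covariate the count of 3 became 1 without the filter and 1 within numbers up to 28, and 1 to 4 without single libraries, with 1 (Sostdc1) without male knockout refed replicate 1 or restricted replicate 3, female control refed replicate 1 or 3 or restricted replicate 2, and female knockout refed replicate 2 or 3. The cause was not tested. Without the covariate that count was 1 throughout, and the counts for refed against unrestricted mice, genotype, sex and both interactions were 0 throughout. Sostdc1 kept its call in 56 of 58 repeats for restriction and in 57 of 57 for refeeding, Slc4a5 in males in 51 of 56, Folr1 after refeeding with the covariate in 47 of 58 and Slc4a5 there in 21 of 58, Kcnj13 in females with the covariate in 47 of 57, and Clic6 in males with it in 46 of 57. Sostdc1 after refeeding kept its call in 51 of 56 repeats in females and 44 of 56 in males. In each of these counts 48 repeats left out 1 library each, whether or not it belonged to the groups compared. The 1094 repeats hold them too. A library outside the groups compared acts only through what all libraries share in the fit, so a call kept there says little about stability. Within single feeding states of 16 libraries the correlation with Ttr missed the threshold for Kl, Clic6, Slc4a5, Kcnj13, Otx2 or Folr1 in 1 or more states, as for Otx2 among restricted libraries (r = 0.297, adjusted permutation p = 0.293).

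No paired analysis was possible because replicate numbers follow the order of the records and pair no mice between groups. Interactions were not run with DESeq2 or voom, voom was not run with the covariate, and tests per sex were not run within parts of the library numbers. A fit to the groups compared equals the full fit for genotype and sex. The lowest count of a member in a library was 12, and the smallest change detectable at this depth was not tested.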
